A study of Mus musculus with 4 samples.

Results

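Across the whole-genome bisulfite sequencing (WGBS) of 4 mouse embryonic brains, 27 of 768919 autosomal tiles of 1 kb had shifted in the same direction with maternal folic acid (FA) in both Tet1 genotypes. A tile was eligible if it held 3 or more CpGs with 5 or more reads in all 4 libraries and 100 or more summed reads in each library. The members were chosen by the difference in methylation level between excess FA (30 ppm) and control FA (3 ppm), which had to reach 15 percentage points with the same sign in KO and in WT. Of these, 15 tiles were higher and 12 were lower at 30 ppm. The diet differences of the members are therefore a description, and no test was made on them. At the same limits 113 tiles moved in opposite directions, 98 of them higher in KO and lower in WT, and 15 lower in KO and higher in WT.

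Each group was a single male E11.5 embryo brain (KO 30 ppm, WT 30 ppm, KO 3 ppm and WT 3 ppm) of the 129S6.cg Tet1<tm1Koh> strain. The tissue ran from the forebrain to the hindbrain above the otic vesicle. The embryos came from Tet1 heterozygous dams on the custom FA diets, all of which contained the antibiotic succinyl sulfathiazole. The Tet1 locus of the KO allele was of B6 origin in the otherwise backcrossed 129S6 background. Matched by embryo number to the sample list of another assay of the study, not from the labels of these libraries, the 4 embryos were from 4 litters, and both KO embryos, but neither WT embryo, had a neural tube defect. Diet, litter and embryo cannot be told apart here, and neither can genotype and phenotype. Mean depth was 13.2 to 21.2 reads per CpG, and the autosomal methylation level was 81.4 to 83.5% in the 4 libraries.

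DNA methylation in mammals is placed on the cytosine of CpG dinucleotides by DNA methyltransferases, which use S-adenosylmethionine, a methyl donor made by the folate and methionine cycles. TET1 oxidises 5-methylcytosine and so opposes methylation. Most of the genome is highly methylated, promoters in CpG islands are mostly unmethylated, and the control regions of imprinted genes carry methylation on only one parental allele, set in the germ line and kept through development.

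The sequence of 5 members is given from the RefSeq GRCm38.p6 genome, 300 bases of the forward strand each, placed where a tile holds most of its measured CpGs outside annotated exons. The first tile of each direction (near Plxnc1 and in Ctnna2) ranks first in its group by the smaller of the 2 genotype differences, and the Grb10 tile has the most CpGs. The other 2 (near Irs2 and near Zdhhc25) met the limits under 4 of the 6 other ways of measuring described further on. Of these ways, leaving out SNP-like CpGs dropped no member, and only 1 of the 27 held such a CpG. The tile near Irs2 lies in an intron of the processed transcript 9530052E02Rik, 4543 bp upstream of the Irs2 start. The tile near Zdhhc25 is intergenic, 94302 bp from the start of that gene. Capitals mark the CpGs that entered the measurement. The windows are chr10:95053221-95053520 near Plxnc1, chr11:12026325-12026624 in Grb10, chr8:11013565-11013864 near Irs2, chr6:77745402-77745701 in Ctnna2 and chr15:88505697-88505996 near Zdhhc25.
near Plxnc1: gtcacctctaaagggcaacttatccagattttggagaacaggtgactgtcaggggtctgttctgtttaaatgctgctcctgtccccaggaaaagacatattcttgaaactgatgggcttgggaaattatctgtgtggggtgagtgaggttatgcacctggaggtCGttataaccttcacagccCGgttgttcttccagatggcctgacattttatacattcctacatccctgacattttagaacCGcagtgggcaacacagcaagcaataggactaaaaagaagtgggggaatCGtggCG
Grb10: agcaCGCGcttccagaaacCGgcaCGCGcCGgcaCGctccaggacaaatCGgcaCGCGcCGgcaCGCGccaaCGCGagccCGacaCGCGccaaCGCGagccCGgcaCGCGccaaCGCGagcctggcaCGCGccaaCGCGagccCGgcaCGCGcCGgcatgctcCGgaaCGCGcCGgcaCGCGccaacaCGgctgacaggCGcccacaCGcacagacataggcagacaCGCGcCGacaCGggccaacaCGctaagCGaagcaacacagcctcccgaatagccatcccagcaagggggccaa
near Irs2: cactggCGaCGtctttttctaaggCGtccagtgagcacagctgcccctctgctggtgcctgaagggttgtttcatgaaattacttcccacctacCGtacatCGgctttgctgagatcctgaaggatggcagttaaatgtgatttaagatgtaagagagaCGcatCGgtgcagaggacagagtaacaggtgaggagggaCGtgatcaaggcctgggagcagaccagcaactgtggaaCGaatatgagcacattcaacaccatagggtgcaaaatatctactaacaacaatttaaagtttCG
Ctnna2: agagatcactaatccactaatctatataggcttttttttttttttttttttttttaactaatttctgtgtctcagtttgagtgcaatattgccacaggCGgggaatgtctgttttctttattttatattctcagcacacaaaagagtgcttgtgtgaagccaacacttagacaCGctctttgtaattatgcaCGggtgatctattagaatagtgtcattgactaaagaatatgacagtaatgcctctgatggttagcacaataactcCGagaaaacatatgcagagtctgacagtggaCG
near Zdhhc25: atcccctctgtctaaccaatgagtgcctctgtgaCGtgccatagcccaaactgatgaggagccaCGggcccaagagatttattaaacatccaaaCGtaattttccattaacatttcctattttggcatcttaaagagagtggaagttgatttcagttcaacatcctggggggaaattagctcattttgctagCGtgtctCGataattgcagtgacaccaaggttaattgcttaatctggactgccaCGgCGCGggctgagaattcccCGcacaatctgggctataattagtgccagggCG

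In the Grb10 window 48 of 49 CpGs were measured, many of them in repeated CGCG steps. Its level was 88.9% in KO 30 ppm, 82.1% in WT 30 ppm, 76.3% in KO 3 ppm and 64.3% in WT 3 ppm. It leaves out the start of the tile (chr11:12026001-12026250), where the level in KO rose by 26.4 points. The other printed windows are far sparser, with 5 measured CpGs near Plxnc1 and in Ctnna2 and 10 each near Irs2 and Zdhhc25. In the window near Zdhhc25 both libraries at 30 ppm (70.8% in KO and 65.7% in WT) were below both at 3 ppm (91.3% and 92.7%). The 2 ways under which the tile near Irs2 missed the limits moved it far: from 16.2 points in KO and 19 in WT to 6.78 and 6.70 points with the unweighted mean of CpG levels, and to 3.26 and 10 points over the 7 CpGs with 10 or more reads in every library.

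Tiles that passed the limit in 1 genotype were far more common than members. In KO, 1799 tiles were higher and 1008 lower at 30 ppm by 15 points or more, and in WT 904 were higher and 2928 lower. The members higher at 30 ppm in both were 0.00195% of the eligible tiles and those lower in both were 0.00156%, whereas tiles higher in KO and lower in WT were 0.0127% and the reverse 0.00195%. Over all eligible tiles the diet difference had an SD of 4.17 points in KO and 4.31 points in WT, with medians of 0.65 and -0.604 points, and the sign was the same in both genotypes in 48.6% of tiles. No member reached 20 points in both genotypes, while 11 tiles with opposite signs did. Among the tiles lower in KO and higher in WT, some lay within the same few megabases of chr10, singled out after the values were seen. These were chr10:66421001-66422000, chr10:68044001-68045000, chr10:68067001-68068000 and chr10:69779001-69780000. A tile of the reverse pattern lay among them (chr10:67637001-67638000), with 17.4 points in KO and -16.7 points in WT.

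**Figure D1:**
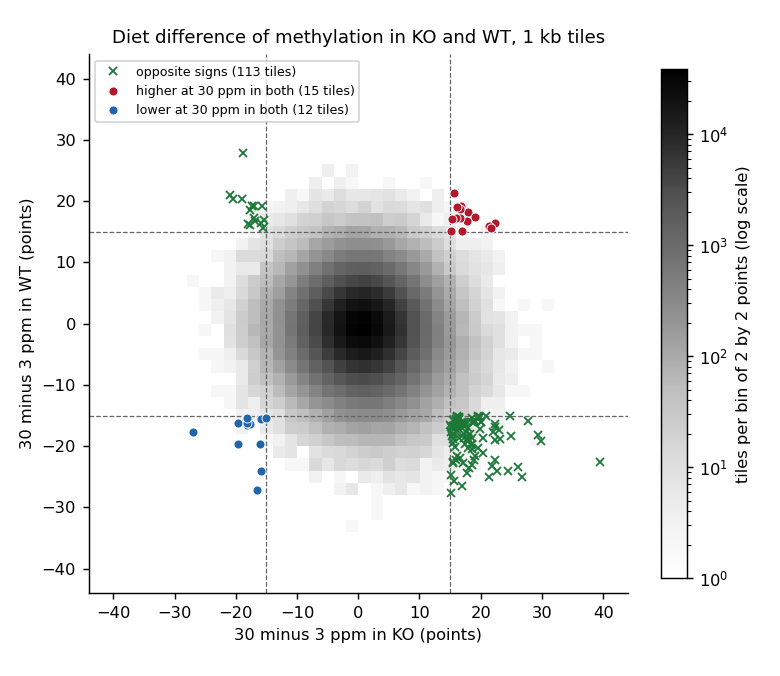
Diet difference (30 minus 3 ppm, in percentage points) in KO on the horizontal axis and in WT on the vertical axis, with grey shading for the number of eligible tiles per bin on a log scale and dashed lines at the 15 point limits. The 15 red and 12 blue members lie at the corners where both genotypes moved the same way, and the 113 green crosses, most of them at the lower right, are the tiles with opposite signs.

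The member with the most data lay in Grb10 (chr11:12026001-12027000), the imprinted gene for a growth factor receptor-bound adaptor that restrains growth. The tile overlaps a CpG island and a non-coding exon of the gene at its known germ-line imprinted region. Over 88 CpGs the level was 88.7% in KO 30 ppm (973 reads), 80.7% in WT 30 ppm (938 reads), 69.6% in KO 3 ppm (2134 reads) and 63.3% in WT 3 ppm (1092 reads). Both libraries at 30 ppm were above both at 3 ppm, and all 4 were above 50%, the level of 1 methylated allele in 2. The difference was 19.1 points in KO (95% Newcombe interval of counting error 16.2 to 21.8) and 17.4 points in WT (13.6 to 21.2). Of the 88 CpGs, 74 moved up in both genotypes and 2 moved down in both. These intervals count each CpG of a fragment as a separate read, while a CpG of this tile was covered by only 11.1, 10.7, 24.2 and 12.4 reads on average in the 4 libraries in the same order. At the depth of a single CpG the intervals would run from -13.3 to 41.0 points in KO and from -18.7 to 47.8 points in WT. Such wider intervals included 0 in both genotypes for each of the 27 members. They take all CpGs of a tile as 1 and so are an extreme bound. At these depths shifts of this size could hardly leave out 0, so this result says little about any member.

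The rise at Grb10 did not have the same borders in the 2 genotypes. In windows of 250 bp, the 2 windows just before the tile differed by 7.30 and 2.03 points in KO and by 27.6 and 29.6 points in WT. Within the tile, the first 2 windows differed by 26.4 and 18.8 points in KO and by 15.1 and 19.2 points in WT. The last 2 windows of the tile, with only 11 and 6 CpGs, differed by 5.59 and 15 points in KO and by 12.4 and 12.6 points in WT. The lists of differentially methylated regions (DMRs) deposited by the authors place a KO diet hyper DMR at chr11:12026119-12026478 and a WT diet hyper DMR at chr11:12025555-12026052, which do not overlap each other. With borders shifted by 500 bp, the tile that begins 500 bp earlier rose by 14.5 points in KO and 21.8 points in WT, and the later one by 7.37 and 15.7 points, so neither met the limit in KO.

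**Figure D2:**
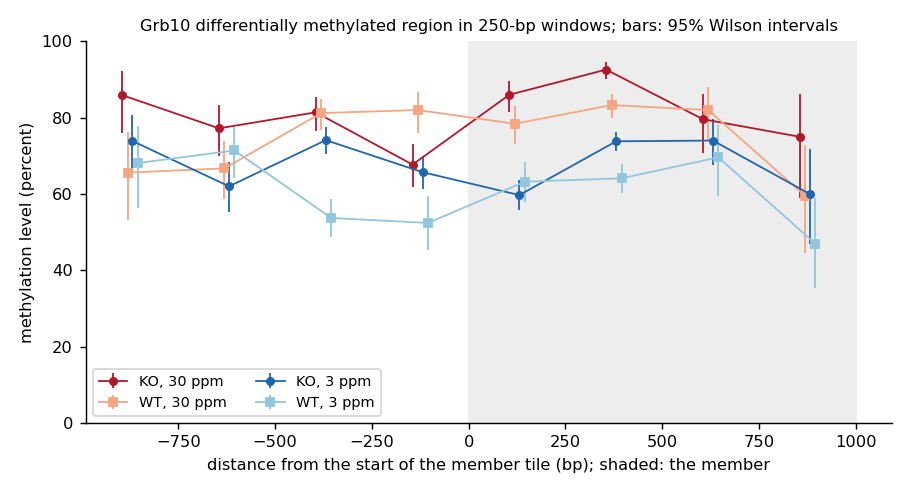
Methylation level (percent of reads) in windows of 250 bp by distance in bp from the start of the Grb10 tile, which is shaded, for the 4 libraries with 95% Wilson intervals of counting error. In the first 2 windows of the tile both libraries at 30 ppm lie above both at 3 ppm, while just before the tile the separation is mainly between the 2 WT libraries.

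At 12 CpGs of the Grb10 tile that the choice did not use, because a library had under 5 reads, but with 2 or more in every library, the level was 71.0% in KO 30 ppm, 84.4% in WT 30 ppm, 50.9% in KO 3 ppm and 58.5% in WT 3 ppm. They rose by 20.1 points in KO and 25.9 points in WT, although they share fragments with the CpGs used. Among the 12 members with any such CpGs (40 CpGs in all), 3 were shifted in the member's direction in both genotypes and 3 against it in both. The median shift in the member's direction was -2.15 points in KO and 0.995 points in WT.

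Among the tiles that rose, the first by the smaller of the 2 genotype differences lay between genes at chr10:95053001-95054000. The nearest coding gene start is that of Plxnc1, a semaphorin receptor, 108166 bp away. Its level over 8 CpGs was 89.9% in KO 30 ppm, 80.4% in WT 30 ppm, 72.0% in KO 3 ppm and 62.2% in WT 3 ppm. The diets did not overlap, with differences of 17.9 points in KO (8.61 to 26) and 18.2 points in WT (7.26 to 28.0). Over the 3 CpGs with 10 or more reads in every library they were 10.7 and 9.24 points.

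An intronic tile of Lrcol1 (chr5:110350001-110351000, 16 CpGs) was at 70.9%, 55.8%, 54.2% and 36.6% in KO 30 ppm, WT 30 ppm, KO 3 ppm and WT 3 ppm. Here WT 30 ppm was only just above KO 3 ppm. Over the 8 CpGs with 10 or more reads in every library the difference went from 16.7 to 8.07 points in KO and from 19.2 to 5.79 points in WT. In Nrxn2 (chr19:6454001-6455000, 11 CpGs), the gene of a presynaptic adhesion protein, the tile holds coding exon sequence. The levels of the same 4 libraries were 81.2%, 78.3%, 63.5% and 61.7%, but only 4 of the 11 CpGs were higher at 30 ppm in both genotypes. With the unweighted mean of CpG levels the difference went from 17.7 to 8.28 points in KO and from 16.7 to 8.73 points in WT.

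The tile between genes whose nearest start is that of Spata18 (chr5:73684001-73685000, 7 CpGs) was at 74.5%, 68.7%, 57.9% and 50.0% in that order. Only 3 of its 7 CpGs were higher at 30 ppm in both genotypes, and with the unweighted mean the difference went from 16.6 to 9.75 points in KO and from 18.7 to 7.44 points in WT. In an intron of Zfhx3 (chr8:108289001-108290000, 11 CpGs), the gene of a zinc finger homeobox transcription factor, the levels were 77.6%, 71.6%, 61.0% and 54.3%. In both tiles the order of the libraries was KO 30 ppm, WT 30 ppm, KO 3 ppm and WT 3 ppm from the highest down. The 15 rising tiles as a set had differences of 15.1 to 22.4 points in KO (median 16.7) and 15.2 to 21.4 points in WT (median 17.2).

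Of the tiles that fell, the first by the smaller of the 2 genotype differences lay in Ctnna2 (chr6:77745001-77746000, 6 CpGs), the gene of the neuronal alpha-catenin that links cadherins to actin. Its level was 43.1% in KO 30 ppm, 46.0% in WT 30 ppm, 62.7% in KO 3 ppm and 65.7% in WT 3 ppm. All 6 CpGs were lower at 30 ppm in both genotypes. The tile fell by 19.6 points in KO (difference -19.6, interval -31.0 to -7.43) and by 19.7 points in WT (-32.4 to -5.99), on 100 to 177 reads per library.

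An intronic tile of Cmtm4 (chr8:104375001-104376000, 13 CpGs), which encodes a MARVEL-domain membrane protein, was at 39.4%, 38.3%, 66.4% and 56.1% in KO 30 ppm, WT 30 ppm, KO 3 ppm and WT 3 ppm. Between genes, 199777 bp from the start of Sox9, a transcription factor of neural crest and glia, a tile of 12 CpGs (chr11:112982001-112983000) was at 34.3%, 41.5%, 50.9% and 68.6%. The first of these fell further in KO (-26.9 against -17.7 points) and the second further in WT (-16.6 against -27.2 points). Over CpGs with 10 or more reads in every library the Cmtm4 tile fell by 9.07 points in KO (4 CpGs) and the tile near Sox9 by 10.9 points in KO (9 CpGs), and with the unweighted mean the Cmtm4 tile fell by 11 points in WT.

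In an intron of Rell1 (14 CpGs) the levels were 59.4%, 62.8%, 77.4% and 79.3%, with 10 CpGs lower at 30 ppm in both genotypes and 0 higher in both. The tile in introns of Gm20388 and Gm26815 (chr8:121294001-121295000, 23 CpGs), whose nearest coding start is that of Foxl1, 166061 bp away, was at 56.1%, 44.2%, 73.7% and 60.6%. It holds the only other deposited diet DMR that overlaps a member, a KO hypo DMR of 6 CpGs at chr8:121294296-121294582. In that DMR the level was 29.3% in KO 30 ppm and 63.9% in KO 3 ppm, but 46.8% in WT 30 ppm and 45.1% in WT 3 ppm. With the unweighted mean of CpG levels, which does not depend on how reads spread over the CpGs, the difference of the tile was -18.5 points in KO but only -5.86 points in WT, and 8 of its 23 CpGs were lower at 30 ppm in both genotypes.

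In Ass1 (chr2:31489001-31490000, 16 CpGs), the gene of argininosuccinate synthase of the urea cycle, the intronic tile was at 64.1%, 46.3%, 83.8% and 62.6%. Here the diets overlapped between genotypes, since KO 30 ppm was above WT 3 ppm. Over the 12 falling tiles the differences were -26.9 to -15.1 points in KO (median -17.9) and -27.2 to -15.4 points in WT (median -16.4). In 14 of 15 rising and 10 of 12 falling members both libraries of 1 diet were on the same side of both libraries of the other. This held in 29% of all eligible tiles. The choice itself favours such separation, and how much of it follows from the choice was not tested.

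**Figure D3:**
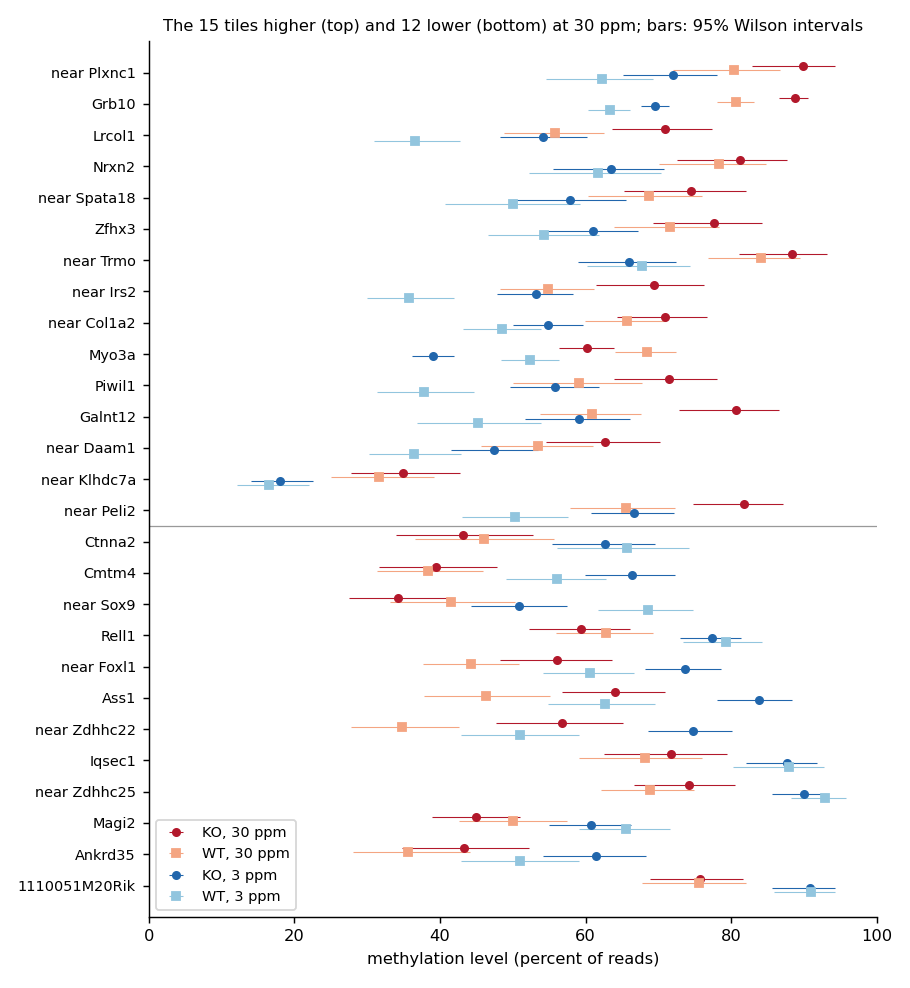
Methylation level (percent of reads, with 95% Wilson intervals of counting error) of the 27 members in the 4 libraries, named by the gene that holds the tile or the nearest coding gene start, with the 15 rising tiles above the line and the 12 falling tiles below it. The Grb10 tile has the narrowest intervals, and most members lie between 30 and 90%.

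The limit cut through a continuous range. Just inside it were the falling tile in 1110051M20Rik (chr2:91332001-91333000), with a smaller difference of 15.06 points, and the rising tile near Peli2 (chr14:48074001-48075000), with 15.09 points. Just outside were an intronic tile of Pebp4 (chr14:69996001-69997000) that fell and an intronic tile of Gm28342 (chr1:89344001-89345000) that rose, each with a smaller difference of 14.99 points. At 10 points, 375 tiles were higher and 464 lower in both genotypes, 0.0488% and 0.0603% of the eligible tiles.

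Most members had an intermediate methylation level, as did the tiles with opposite signs. The mean level of the 4 libraries was 20 to 80% in 25 of 27 members, against 18% of the eligible tiles, and in 110 of the 113 tiles with opposite signs. Its median was 60.0% in the members, 55.3% in the tiles with opposite signs and 88.9% in all eligible tiles. A level near 0 or 100% leaves little room for a shift of 15 points in 1 direction, so the rule itself bears on this. Of the 27, 9 (33.3%) lay in CpG islands or within 2 kb of one, against 14.4% of all eligible tiles and 21.1% of eligible tiles with a mean level of 20 to 80%. With stricter islands there was 1 member, the Grb10 tile (3.70%), against 4.73% of all eligible tiles and 9.86% of those of intermediate level. A share that rests on 1 tile does not set the members apart from all eligible tiles. None lay within 1 kb of the start of a protein-coding gene, 6 rising and 3 falling members were intergenic, and no member adjoined another.

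In 24 of the 27 (88.9%, against 82.3% of all eligible tiles) the shallowest library had 100 to 199 reads, in 1 it had 200 to 399 and in 2 it had 400 or more. The median of the shallowest library was 135 reads in the members and 142 in all eligible tiles. Coverage relative to the autosomal mean of the library had medians of 0.940 to 0.980 in the members (0.803 to 0.940 in the falling ones), against 1.13 over all eligible tiles, 1.07 to 1.09 over those of intermediate level and 1.02 to 1.08 over the tiles with opposite signs. The part of depth in the shifts was not tested.

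The other member with over 400 reads in each library was singled out after its values were seen. It lies in Myo3a and in the pseudogene Gm13340, upstream of Gad2 (chr2:22589001-22590000, 20 CpGs), and its level was 60.2% in KO 30 ppm, 68.4% in WT 30 ppm, 39.0% in KO 3 ppm and 52.4% in WT 3 ppm. With the unweighted mean of CpG levels its difference went from 21.3 to 13.5 points in KO and from 15.9 to 9.53 points in WT. Coverage of this tile was 2.48, 1.65, 2.62 and 1.84 times the autosomal mean in the same order, the highest of any member in KO 3 ppm. Of its 31-base words, 58.6% also occur in the mitochondrial genome and 23.8% elsewhere in the nuclear genome. Mitochondrial CpGs were read as methylated at 0.914 to 0.938% in these libraries, and the mitochondrial reads per nuclear depth were 1.73 times those of WT 30 ppm in KO 30 ppm, 2.78 times in KO 3 ppm and 1.09 times in WT 3 ppm. The part of mitochondrial reads in this member was not tested. No other member shared a word with the mitochondrial genome, and 15 of the 27 had no word anywhere else in the genome. In 3 members over 10% of the words occurred elsewhere in the nuclear genome, namely this tile and those in Rell1 (12.1%) and Ankrd35 (15.3%).

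The tiles beside the members had no shift in common with them on the median. In the 49 measured tiles next to a member the median difference in the member's direction was 0.803 points in KO and -0.584 points in WT. Of these, 14 were shifted in the member's direction in both genotypes, 14 against it in both, and 0 by 10 points or more in both. At 2 kb the medians were 0.689 points in KO and -1.74 points in WT. The tile before the Grb10 member rose by 7.01 points in KO and 19 points in WT over 62 CpGs. The tile after it, with only 3 CpGs, differed by 15.3 points in KO and by -13.0 points in WT.

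**Figure D4:**
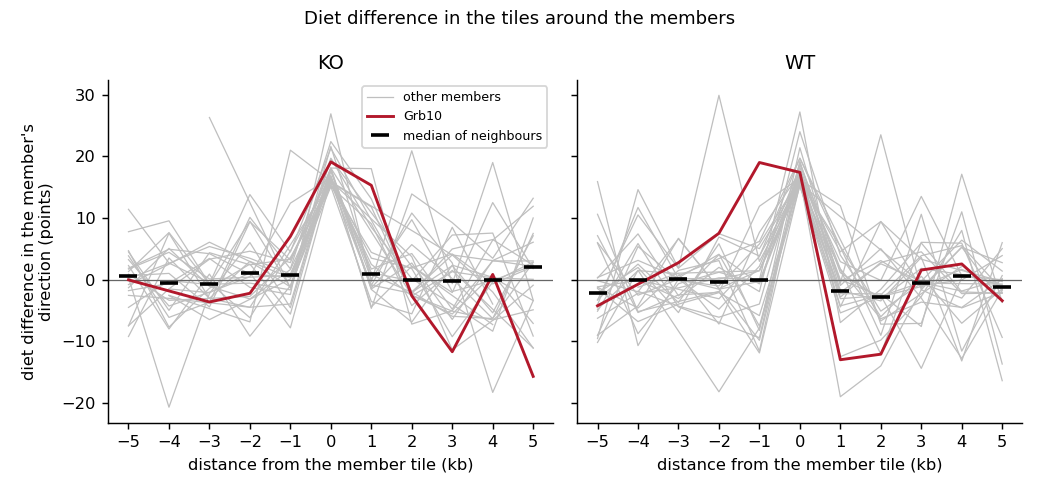
Diet difference (points, signed in the direction of the member) by distance in kb from the member tile in KO and WT, with a grey line per member, Grb10 in red and black bars for the median over the neighbours. The peak at 0 kb is the choice itself, and the medians at 1 to 5 kb on either side lie near 0.

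The CpGs inside the members are the ones whose sums chose the tiles, so their directions are a description. Of 258 CpGs of the rising tiles, 172 were higher at 30 ppm in both genotypes, 74 of them in Grb10, and 10 were lower in both. In the falling tiles 97 of 154 were lower in both and 10 higher in both. Leaving out the CpG with the largest shift took the difference of 15 members below 15 points in a genotype, among them those near Plxnc1 and in Nrxn2, Zfhx3 and Rell1. A further 2, in Ctnna2 and near Spata18, kept the difference but then had under 100 reads in a library. The other 10 still met the limits, among them the tiles in Grb10, Lrcol1, Cmtm4 and Ass1, near Sox9, and in Gm20388 and Gm26815. The CpG left out was picked for its shift in the direction of the tile, so a lower difference largely follows from the setting.

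The comparison of KO with WT was not part of the rule, but it uses the same 4 libraries and is not independent of the choice. How far KO minus WT differs between the diets equals how far the diet difference differs between the genotypes. The rule held the diet differences of both genotypes to the same sign and past 15 points. Similar values of KO minus WT at 30 and 3 ppm therefore largely follow from the choice. Fisher's exact test on the reads of a tile compares these libraries and not the genotypes, and CpGs of 1 fragment are counted separately. Calls needed a Benjamini-Hochberg adjusted p under 0.05 over 1863069 tiles and a difference of 10 points. At 30 ppm 1.13% of all tiles were called higher and 0.0487% lower in KO, and at 3 ppm 1.10% were called higher and 0.114% lower. These shares were larger among eligible tiles with a mean level of 20 to 80%, namely 8.53% higher and 0.109% lower at 30 ppm, and 7.93% higher and 0.304% lower at 3 ppm.

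Of the members, 2 were called at 30 ppm, both higher in KO, which is 7.41% of 27 and close to the share among tiles of intermediate level. These were the tile in Galnt12, the gene of an enzyme that starts mucin-type O-glycans, by 19.8 points (adjusted p = 0.0275 by Fisher's exact test), and the tile near Zdhhc22, by 21.8 points (adjusted p = 0.0357 by the same exact test). At 3 ppm 7 were called, 5 higher in KO (18.5%) and 2 lower (7.41%). Higher in KO were the tiles in Lrcol1 (17.6 points), Piwil1 (18 points) and Ass1 (21.3 points), near Irs2 (17.4 points) and near Zdhhc22 (23.7 points), the last with an adjusted p = 0.00121 by the exact test. Lower in KO were the tile near Sox9, by -17.7 points, and the tile in Myo3a and Gm13340 that resembles mitochondrial DNA, by -13.5 points (adjusted p = 5.04e-05 by the exact test). With Fisher's test replaced by z, the difference over its counting error, divided by the robust SD of z over all tiles (1.19 at 30 ppm and 1.22 at 3 ppm), 0 members were called at 30 ppm and 3 at 3 ppm, the tiles in Myo3a and Gm13340, in Ass1 and near Zdhhc22. In thinned libraries the tile in Galnt12 alone was called at 30 ppm, and at 3 ppm those in Lrcol1, in Myo3a and Gm13340 and near Zdhhc22.

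The Grb10 tile was higher in KO than in WT at both diets, by 7.99 points at 30 ppm (adjusted p = 0.000442 by Fisher's exact test) and by 6.31 points at 3 ppm (adjusted p = 0.0319 by the same exact test), under the 10 points needed for a call. With 10 reads per CpG the Grb10 tile was called at 30 ppm, where 23 members had a value and the tile near Zdhhc22 had none. KO was above WT in 22 of 27 members at 30 ppm and in 18 of 27 at 3 ppm, or 81.5% and 66.7%, against 73.8% and 64.5% of eligible tiles of intermediate level. The tile near Zdhhc22 was called at both diets, but at 30 ppm it was not called in thinned libraries or with z divided by its robust SD. Similar values of KO minus WT at both diets largely follow from the choice. A value at 30 ppm is thus not independent of that at 3 ppm. Whether the calls differ between diets was not tested.

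Gene lists relevant to the study were read against the 0.00351% of eligible tiles that were members, a share too small to tell a list with 0 members from the other tiles. Within 10 kb of the genes there were 804 eligible tiles for folate and methyl donor metabolism, 395 for writers, erasers and readers of DNA methylation, 1008 for neural tube closure and 313 for brain patterning transcription factors. These 4 lists held 0 members, and also 0 tiles past 10 points in the same direction in both genotypes. The latter made up 0.109% of all eligible tiles, again too small a share to tell a list with 0 from the other tiles. The list of imprinted genes held 1 member, Grb10, among 728 eligible tiles.

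At 10 points the imprinted genes held 8 tiles shifted the same way in both genotypes, 7 higher and 1 lower at 30 ppm, which is 1.10% of their eligible tiles against 0.109% of all. Among tiles with a mean level of 20 to 80% the share was 4.06% of 197 tiles against 0.519% of 138666. These tiles were singled out after their values were seen, and the count has no test. The lists were chosen with earlier results of these data known, and several of the 8 tiles share the Gnas locus. Tiles past 10 points with opposite signs were not counted for the listed genes. Over all eligible tiles there were 1595 of these, against 375 higher and 464 lower in both genotypes. All 8 had an island or a shore, and the median diet difference over the 728 tiles was 0.343 points in KO and -0.921 points in WT.

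Besides Grb10 the rising tiles lay at Gnas, Mest, Nap1l5 and Plagl1. The 3 tiles at Gnas and its antisense transcript Nespas, the locus of the stimulatory G protein subunit, were at 59.8%, 59.6%, 47.2% and 44.8%, at 64.2%, 54.3%, 49.5% and 44.0%, and at 73.6%, 69.4%, 62.4% and 52.6% in KO 30 ppm, WT 30 ppm, KO 3 ppm and WT 3 ppm. In each of the 3, both libraries at 30 ppm were above both at 3 ppm. Further along chr2 than the last of them (chr2:174300001-174301000), a tile was among the 113 with opposite signs. This tile (chr2:174328001-174329000) was at 78.5%, 45.5%, 48.7% and 64.6% in the same order, a difference of 29.8 points in KO and -19.1 points in WT. The tiles of this stretch of chr2 therefore did not all move the same way in the 2 genotypes. At Mest the shore tile was at 54.8%, 42.7%, 36.5% and 31.8%, and at Nap1l5 the island tile was at 82.8%, 85.7%, 71.9% and 61.7%. At Plagl1, a zinc finger gene expressed from the paternal allele, KO 3 ppm (60.1%) was above WT 30 ppm (51.2%), so that the diets overlapped between genotypes. The tile that fell, at the amino acid transporter gene Slc38a4, was at 56.3%, 52.1%, 67.6% and 73.1%. These tiles had 179 to 672 reads per library outside Grb10, and how far the sampling of 2 parental alleles by few fragments enters their levels was not tested.

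**Figure D5:**
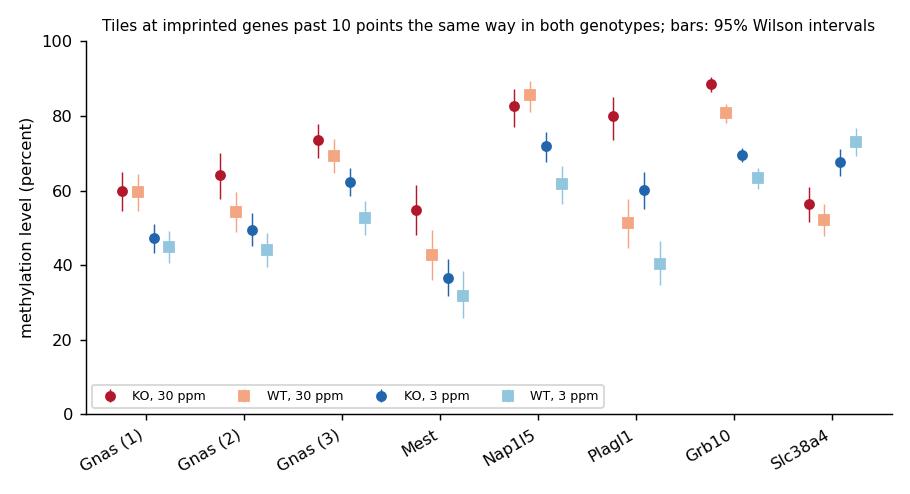
Methylation level (percent of reads, with 95% Wilson intervals of counting error) in the 4 libraries of the 8 tiles within 10 kb of listed imprinted genes that passed 10 points the same way in both genotypes. The libraries at 30 ppm (red) are above those of the same genotype at 3 ppm (blue) in 7 tiles and below them at Slc38a4.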

How the data were processed

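WGBS libraries were made from 4 brains, 1 per group. Per the labels, the authors trimmed reads with Trim Galore 0.6.10 and aligned them with Bismark 0.23.1 to GRCm38.p6, removed duplicates and merged strands. The deposited methylation fraction and read count of each CpG were used to recover methylated reads. The deposited start and end positions of the authors' diet DMRs served for overlaps only, and their other DMR lists were not used. Listed positions count from 0 and are given from 1. Reads were summed over 1 kb tiles, and the code was checked on simulated data. Levels carry 95% Wilson and differences 95% Newcombe intervals, which cover counting error only. KO and WT were compared by Fisher's exact test (two-sided, numba 0.67.0, Benjamini-Hochberg over all tiles). CpG islands were called on unmasked sequence (200 bp or longer, GC of 50%, observed over expected CpG of 0.6), with 2 kb shores. Genes were from GENCODE vM21 and sequence from RefSeq GRCm38.p6. Words of 31 bases were searched on both strands of the nuclear chromosomes and the mitochondrial genome. Python 3.11.15 and numpy 2.4.6 were used.

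Named were the 6 members of each direction with the largest smaller difference of the 2 genotypes, runs of adjacent members, members within 1 kb of a coding gene start, over a diet DMR or within 10 kb of a listed gene, the 2 tiles on either side of the limit, and the tile of each opposite direction with the largest smaller difference. The members and lists were chosen with earlier results of these data known. With 1 library per group there is no replicate error. Alternatives were 10 reads per CpG, libraries thinned to the shallowest, the unweighted mean of CpGs, tiles shifted by 500 bp, limits of 10 and 20 points, CpGs at 10% or less in one library and 90% or more in another left out as SNP-like, and the CpG with the largest shift left out. The sequences of the other members are not reported here.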

Additional observations from a re-analysis of the deposited data

Results flagged for a closer look

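The tile of each opposite direction with the largest smaller difference is given because its 2 genotypes moved in opposite ways with diet. A coding exon tile of Ndrg4 (chr8:95700001-95701000, 10 CpGs) was at 84.4% in KO 30 ppm, 48.8% in WT 30 ppm, 57.6% in KO 3 ppm and 73.8% in WT 3 ppm, a diet difference of 26.8 points in KO and -25.0 points in WT. An intronic tile of the calcium channel gene Cacna1d (chr14:30138001-30139000, 13 CpGs) was at 52.1%, 76.3%, 72.9% and 55.4% in the same order, a difference of -20.9 points in KO and 21 points in WT. Each value rests on 1 library, the tiles were chosen for this contrast, and the difference between the genotypes was not tested.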

How the results depend on the processing

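The number of members, and which tiles they are, depended on the measurement. The 15 rising members became 4 with 10 reads per CpG, 3 with the unweighted mean of CpG levels, 7 with tiles shifted by 500 bp and 5 with the largest CpG left out, and stayed within 1.5 times in the other 2 settings at this limit. The 12 falling members became 21 in thinned libraries and 6 with the largest CpG left out. At limits of 10 and 20 points there were 375 and 0 rising, 464 and 0 falling, and 1595 and 11 opposite tiles, and in every other setting there were 84 to 140 opposite tiles against 113. Of the 27 members, 5 were kept with 10 reads per CpG, 13 after thinning, 6 with unweighted means, 3 in shifted tiles, 10 without the largest CpG and 27 without SNP-like CpGs. Only 1 member held a SNP-like CpG, so that setting could hardly drop a member. With 10 reads per CpG 16 members no longer had enough reads or CpGs, and after thinning 5. None was kept in all 6 of these settings, Grb10 in 5, and the tiles near Irs2, in Rell1 and near Zdhhc25 in 4. The members called between genotypes stayed at 2 with 10 reads per CpG, where Grb10 was called and the tile near Zdhhc22 had no value, and went to 1 after thinning and 0 with z divided by its robust SD at 30 ppm. At 3 ppm they went from 7 to 4 with 10 reads per CpG, over the 23 members with a value, to 3 after thinning and to 3 with z divided by its robust SD. The 4 with 10 reads per CpG included the tile near Peli2, which was not among the 7. Members in islands or shores went from 9 to 1 with strict islands. The causes of the other changes were not tested. The overlap with diet DMRs (2 members), the neighbouring tiles and the unused CpGs kept their values within the limits set. The shallowest library had 100 to 199 reads in 24 members, which limits how small a shift can be measured.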
